A study of Mus musculus with 20 samples.

Results

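The 500 autosomal 200-bp bins whose methylation differed most between livers of the same group were described in mouse offspring at birth and at weaning. Of 598056 autosomal CpGs covered by 10 or more reads in every one of the 20 libraries, those in 35855 bins gave 100 or more summed reads in every library. These kept bins were ranked by the standard deviation (SD) of percent methylation among the 5 libraries of a group, averaged over the 4 groups, and the first 500 of the 35855 were taken. They hold 3445 CpGs and are called the variable bins. The members were thus chosen by their spread in percent methylation, which is described here without a test. All animals were labelled male wild-type C57BL/6J mice, with 5 livers in each of the groups Con-d0 and AME-d0 (at birth) and Con-d21 and AME-d21 (at 21 days). AME, an adverse maternal environment, stands for dams that ate a Western-style diet rich in fat, sucrose and cholesterol from before mating through lactation and met changes of light and cage, new objects and reduced bedding late in pregnancy. Con dams ate the control diet without stress. The d0 offspring were delivered by C-section, whereas the d21 offspring came from other dams that delivered naturally, stayed with their dam and were fasted before death, so age goes with mode of delivery and feeding. Whole livers were ground, so a change in the cells that make up the liver and a change within a cell cannot be told apart.

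CpG methylation in a mammalian genome is mostly set early in development and copied at cell division, so that genetically alike mice share most of it. Known exceptions are metastable epialleles, where an animal settles at its own level in all tissues, often next to a retrotransposon of the IAP class. At imprinted control regions the copy from a parent of 1 sex is methylated and the other copy is not, which keeps a liver near the middle of the scale. Reduced representation bisulfite sequencing (RRBS) reads MspI fragments, which begin and end at CCGG. All CpGs of a read come from 1 DNA molecule.

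The depth ranged from 23248139 to 45769589 reads summed over CpGs per library. AME-d0 replicates 1 and 3 had 30.1% and 29.3% of their autosomal CpG reads methylated, below the 34.4% to 37.9% of the other d0 libraries. In AME-d21 replicate 4 the X chromosome gave 2.88 reads for every 100 on the autosomes, and in the other d21 libraries 1.53 to 1.55. The list of variable bins kept 396 of its 500 members without AME-d0 replicates 1 and 3, and 436 without AME-d21 replicate 4. In 5 bins at hepatocyte genes the mean methylation of a library fell from between 49.6% and 56.8% at d0 to between 17.8% and 24.6% at d21. The 47 bins at haematopoietic and myeloid genes were between 12.5% and 14.7% at d0 and between 17% and 18% at d21. The mean over all kept bins also rose, from 24.5% to 26.6% at d0 to 28.5% to 28.9% at d21. Bins of the endothelial, B cell, stellate and Kupffer lists were likewise higher at d21. Libraries of both ages overlapped in the erythroid list (38.3% to 41.0% at d0, 39.1% to 41.4% at d21) and in the cholangiocyte list (14.3% to 15.6%, 14.0% to 15.2%). Whether the makeup of the liver enters the spread between animals was not tested.

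The sequences of 4 of the highest-ranked bins that overlap no UTR are given first, and not as typical of the list. They come from an imprinted island, an island near no imprinted gene of the list, a repeat and an exon outside islands. They are read from RefSeq's GRCm38 (the assembly of mm10) on the plus strand, with the CpGs that were counted in capitals.
Peg13, chr15:72809801-72810000: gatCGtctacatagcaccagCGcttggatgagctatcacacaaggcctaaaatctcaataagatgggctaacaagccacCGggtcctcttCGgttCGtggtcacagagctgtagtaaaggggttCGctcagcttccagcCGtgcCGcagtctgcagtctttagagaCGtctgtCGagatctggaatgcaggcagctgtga
near Gm7389, chr8:3994201-3994400: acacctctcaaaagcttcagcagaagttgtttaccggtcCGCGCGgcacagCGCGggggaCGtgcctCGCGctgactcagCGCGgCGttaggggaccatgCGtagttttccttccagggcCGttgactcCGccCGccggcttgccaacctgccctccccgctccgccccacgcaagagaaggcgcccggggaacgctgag
repeat on chromosome 3, chr3:36853401-36853600: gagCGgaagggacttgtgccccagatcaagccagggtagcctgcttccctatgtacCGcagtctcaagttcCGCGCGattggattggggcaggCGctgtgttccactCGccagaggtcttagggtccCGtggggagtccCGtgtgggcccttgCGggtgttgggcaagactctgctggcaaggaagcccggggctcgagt
Plekho1, chr3:95989001-95989200: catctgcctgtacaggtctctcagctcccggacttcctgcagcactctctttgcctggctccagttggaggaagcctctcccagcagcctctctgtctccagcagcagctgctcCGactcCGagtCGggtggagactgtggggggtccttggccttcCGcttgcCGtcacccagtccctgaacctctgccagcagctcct
In the Peg13 bin all 10 CpGs were counted. In the bin near Gm7389 15 of 23 were counted, in the repeat 10 of 12 and in Plekho1 5 of 6.

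The Peg13 bin ranked first, with a mean within-group SD of 12.2 percentage points. Peg13 is an imprinted non-coding RNA gene that lies inside Trappc9, and the bin falls in an exon and in a CpG island. In Con-d0 its methylation was 26.4%, 59.2%, 36.6%, 33.7% and 21.5% in replicates 1 to 5. In AME-d0 it was 37.2%, 32%, 23.2%, 28.4% and 35.7%. In Con-d21 it was 18.1%, 36%, 26.6%, 24.7% and 53.6%. In AME-d21 it was 55.3%, 35.3%, 31.3%, 14.2% and 40.1%. Single animals stood at 53.6% or more in 3 of the 4 groups, and the 4 groups overlapped. An MspI site splits the bin into fragments that give separate reads. Over the 20 libraries the deviations of these fragments from their group means had a Pearson r of 0.657, the highest of the 6 such pairs at imprinted members, which had a median of 0.179. The bin's percent sums over its fragments, so this value is not independent of the ranking.

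The bin near Gm7389 lies in an intergenic island upstream of that predicted gene and ranked 2, with a mean SD of 12 points. Con-d0 replicate 1 had 63.1%, whereas the rest of its group lay at 19.2% to 30.2%. AME-d21 replicate 4 had 56.9% where the rest had 23.4% to 36.9%, and Con-d21 replicate 5 had 46.7% where the rest had 10.7% to 31.1%. AME-d0 was the narrowest group, at 23.3% to 32.9%.

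The Airn bin ranked 3. Airn is the imprinted antisense RNA that starts inside Igf2r, the receptor that clears the growth factor IGF2, and the bin lies in an intron and in an island. In percent methylation Con-d0 spanned 15.8% to 51.4%, AME-d0 26.2% to 46.6%, Con-d21 21.7% to 47.1% and AME-d21 23.7% to 52.4%, so all groups overlapped. Plagl1, an imprinted zinc finger gene, ranked 8, and there Con-d0 spanned 18.6% to 45.5%, AME-d0 26.5% to 51.9%, Con-d21 29.5% to 64.3% and AME-d21 28.9% to 50.6%. Gnas, which encodes a G protein subunit in a complex imprinted cluster, ranked 11, and there Con-d0 spanned 20.3% to 46.5%, AME-d0 17.7% to 53.1%, Con-d21 22.2% to 38% and AME-d21 29% to 49.1%.

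The repeat on chromosome 3, upstream of 4932438A13Rik, ranked 4. Its 30-mers occur in the genome a median of 1059 times, so reads from other copies could be placed there. Con-d21 was widest, with 28.7%, 22.6%, 63.3%, 53.7% and 43.6% in replicates 1 to 5. Con-d0 had 31.2% to 52.1%, AME-d0 26% to 47.2% and AME-d21 44.2% to 72.2%.

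The Plekho1 bin, in an exon of a gene for a pleckstrin homology domain protein, ranked 5. In Con-d21 replicate 4 it was at 33.3%, and in the rest of that group at 60% to 78.7%. Con-d0 had 50% to 81.8%, AME-d0 63.6% to 85% and AME-d21 55.2% to 76.5%.

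Tbkbp1, the gene of a protein that binds the kinase TBK1, ranked 6 and differed both within and between groups. Its bin stood at 51.1% to 72.8% in Con-d0 and at 11.1% to 44.7% in Con-d21, without overlap. AME-d0 ran from 21.4% to 68%, the lowest value being that of replicate 1, and AME-d21 from 13.8% to 31.2%. 2700081O15Rik (a gene without a known role) at rank 9 and Shank3 (a scaffold protein of synapses) at rank 10 were also lower at d21, and Pip4k2b (a phosphoinositide kinase) at rank 12 was higher. These 4 bins passed the test of age described further on in both Con and AME, with limma adjusted p from 0.000913 to 0.0146.

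**Figure D1:**
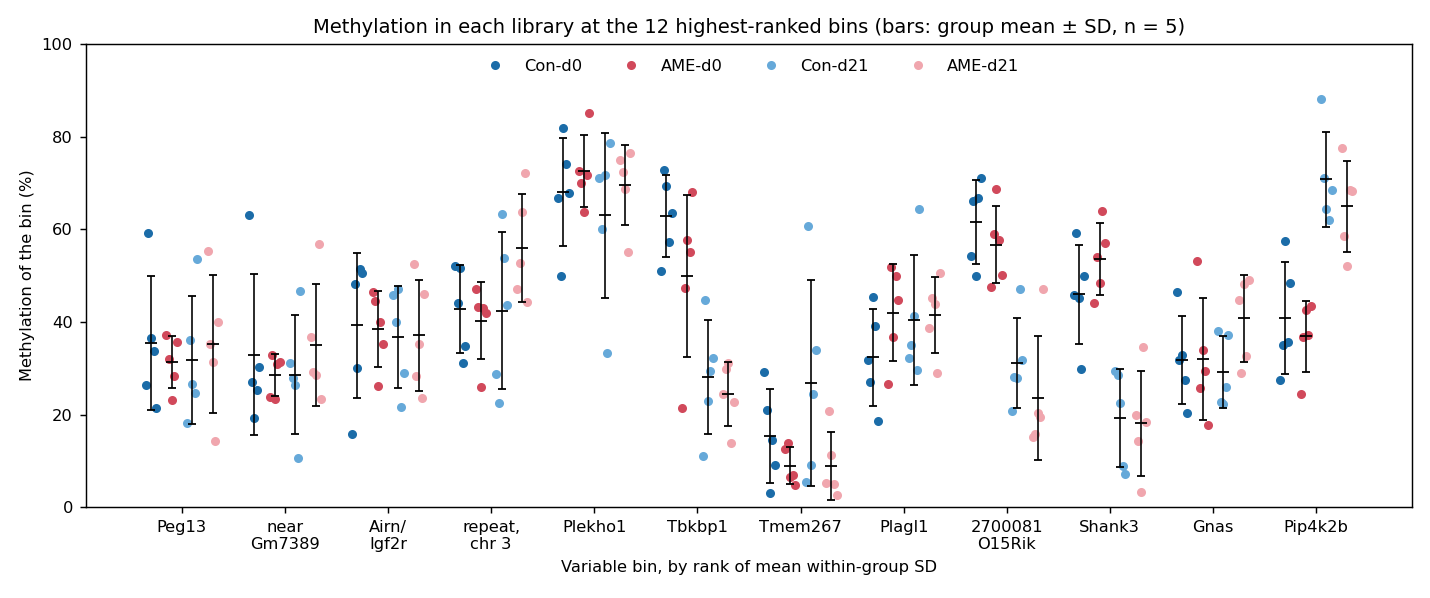
Percent methylation (y axis) of the 12 highest-ranked variable bins (x axis, by rank), 1 point per library, with the mean and SD of each group of 5 as bars. The groups overlap at Peg13, near Gm7389 and at Airn, whereas Tbkbp1, 2700081O15Rik and Shank3 are lower and Pip4k2b is higher at d21.

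The variable bins had mean SDs from 6.22 to 12.2 points with a median of 6.91, against a median of 0.658 in all kept bins. Most kept bins are unmethylated, with a median of 1.21%, and cannot vary much. The variable bins had a median methylation of 52.2%, and 405 of the 500 lay between 30% and 70%. Within that range 405 of 3071 kept bins, or 13.2%, were variable bins. From the lowest to the highest of the 20 libraries a variable bin spanned a median of 36.3 points, age differences included, and 125 spanned 50 points or more. The median SD was 6.78 points in Con-d0, 6.98 in AME-d0, 7.01 in Con-d21 and 7.02 in AME-d21. The group of highest SD was Con-d0 in 99 variable bins, AME-d0 in 134, Con-d21 in 136 and AME-d21 in 131. In 64 bins the SD was above the 95th percentile of all kept bins in all 4 groups, in 267 in 3 groups, in 161 in 2 and in 8 in 1. Just inside the limit stood a bin in Cfdp1 (6.227) and a bin on chromosome 18 (6.225), and the next 2 bins, also on chromosome 18, had 6.223 and 6.223.

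Part of any such spread is the counting of molecules. If every CpG read were independent, the SD from counting would have a median of 3.23 points in the variable bins, and all 500 exceeded it. If all CpGs of a read shared 1 state, the number of molecules would be the mean read number per CpG, which had a median of 35.4, and the SD from counting would be 7.90 points. This is called the molecule-level SD. It takes a bin as 1 fragment, and where an MspI site splits a bin the molecules are more and the SD from counting is smaller. Removal of duplicate reads is not described, and if copies of a molecule remain the SD from counting is larger. A bin above the molecule level is therefore not shown to vary beyond counting. The mean SD was above the molecule level in 127 of the 500 variable bins (25.4%), in 9 of the 2666 other bins of 30% to 70% (0.338%) and in 0.644% of all kept bins. When 20 reads per CpG were asked, 224 of the members were still in the first 500, and members that fell under the bin minimum count as lost. When each bin was thinned to 100 reads 325 were, and when bins were ranked by their variance above the molecule level, an order tried after the data were seen, 181 were. These counts are descriptions, since the same SD chose the list.

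**Figure D2:**
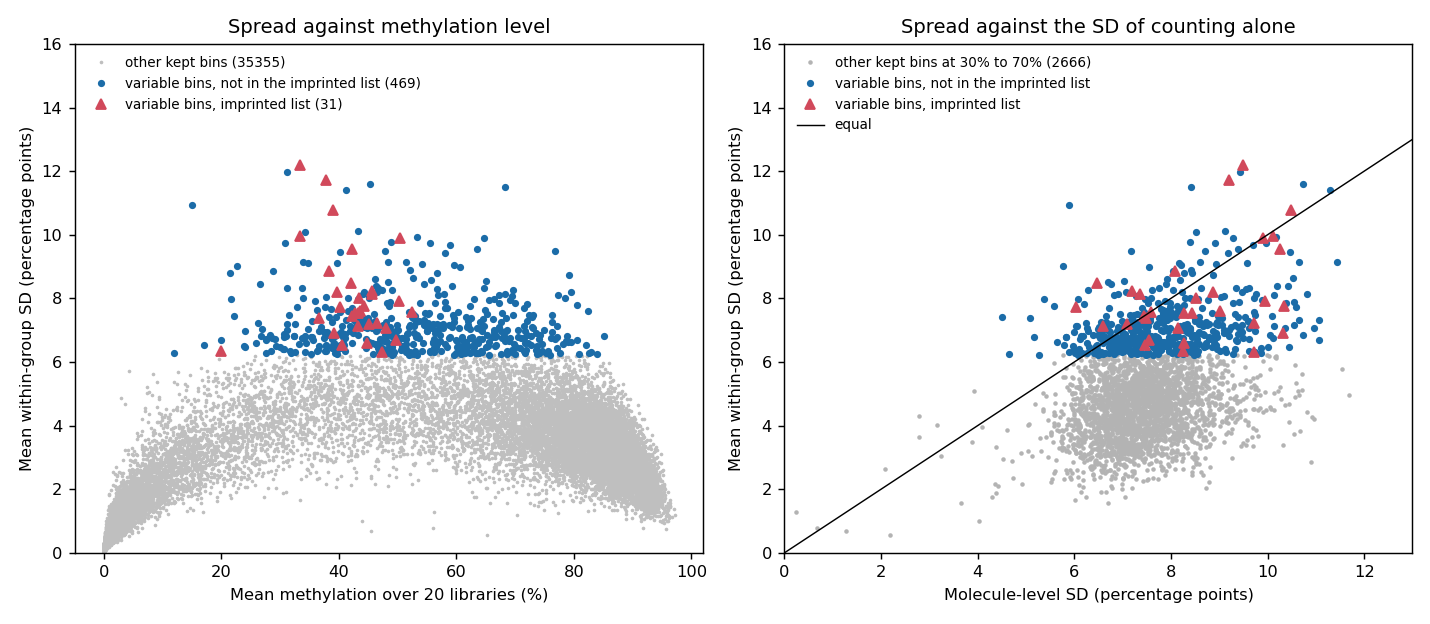
Mean within-group SD (y axis, percentage points) against mean methylation over the 20 libraries (left, x axis in percent) and against the molecule-level SD (right, x axis in percentage points), 1 point per kept bin. The variable bins begin at 6.22 points and are most common from 30% to 70%, and 127 of them lie above the line of equality.

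Where an MspI site lies inside a bin, the fragments on either side carry separate molecules. The percent that was ranked sums over these fragments, and fragments that deviate together raise its SD, so the selection itself favours a high r between them and the values are given as a description. In 58 such pairs in variable bins, each with at least 10 reads in all libraries, the deviations from the group means over the 20 libraries had a median r of 0.254, and in 649 pairs in other bins of 30% to 70% it was 0.050. The points share the libraries and their depth.

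The 500 bins formed 467 stretches when members within 1 kb were joined. Of these, 442 held 1 member, 20 held 2, 3 held 3, 1 held 4 and 1 held 5. The longest lay at the imprinted gene Zrsr1, inside Commd1, at chr11:22972001-22974200, and the next at the predicted gene Gm49692, at chr12:20232801-20233800. Nnat, Grb10 and 2700081O15Rik, the last at chr19:7422001-7423200, held 3 each. Members that start 200 bp apart, which can share reads, had a median r of 0.557 in 22 pairs, against 0.363 in 134 pairs of other bins of 30% to 70%. In 19 pairs of members that start 400 to 1000 bp apart it was 0.098, against 0.031 in 60 pairs of other bins. Kept bins that were no members but lay within 1 kb of one had a median SD of 5.03 points in the 69 at 30% to 70%, against 4.49 in the 2597 others of that range.

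At Tmem267 bins 800 bp apart moved together, which was singled out after the values were seen. The bin at chr13:119488001-119488200 covers the start of Tmem267 and of the gene 3110070M22Rik, and ranked 7, with 16 CpGs counted. In Con-d21 its values were 5.56%, 60.8%, 9.09%, 24.5% and 33.9% in replicates 1 to 5. In Con-d0 they were 29.3%, 21%, 3.13%, 14.6% and 9.13%. AME-d0 ranged from 4.81% to 13.8% and AME-d21 from 2.59% to 20.8%. Most libraries were under 30%, and Con-d21 replicates 2 and 5 were above. The second member at this locus starts 800 bp further on and ranked 141. There Con-d21 replicate 2 was again highest, at 85.7% against 61.9% to 72.7% in the rest of its group, and Con-d0 replicate 3 again lowest, at 46.7% against 53.7% to 75.9%. The kept bin that starts 1000 bp from the first was no member, with an SD of 4.59 points, and Con-d21 replicate 2 was highest there too, at 92.1% against 75.4% to 85.0%. The deviations from the group means had r of 0.861 and 0.805 between the first bin and the others, and 0.820 between these. The mean SD was 10.9 points against a molecule-level SD of 5.90 in the first bin, and 7.39 against 5.07 in the second.

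**Figure D3:**
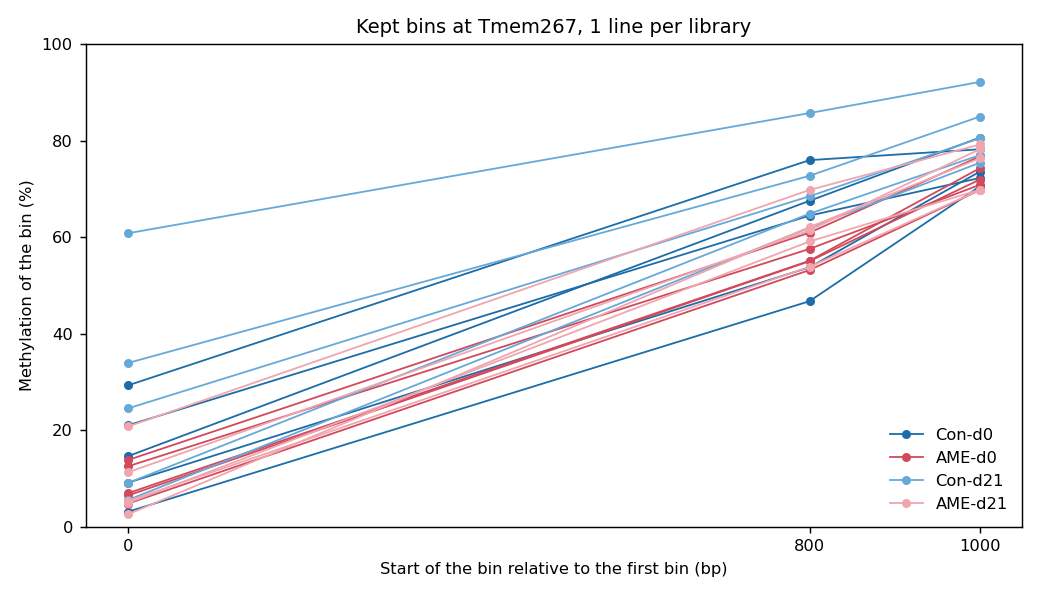
Percent methylation (y axis) of the 3 kept bins at Tmem267 by the start of each bin (x axis, bp from the first bin), 1 line per library. The Con-d21 library that stands at 60.8% in the first bin is also the highest in the others, at 85.7% and 92.1%.

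Other bins above the molecule level were likewise named after their values were seen. A bin downstream of Tlx3, a homeobox gene, had an SD of 9.02 points and a molecule-level SD of 5.77. In this bin Con-d0 spanned 17% to 34.1%, AME-d0 15.2% to 36.3%, Con-d21 12.8% to 41.9% and AME-d21 14.1% to 36.9%. An intron of Cdk8, a kinase of the Mediator complex, had 7.75 points and a molecule level of 5.57, and an intron of Ston2, which encodes an endocytosis protein, had 8.25 and 6.27. An intergenic bin at chr13:100588801-100589000 had 9.50 and 7.18. There Con-d0 replicate 2 had 54.9% and Con-d21 replicate 1 had 54.2%, and the other 18 libraries had 70.3% to 88.8%.

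The 4 members at Gm49692 had SDs of 6.78 to 7.98 points, all above their molecule levels. They held 57.2 to 122 reads per CpG, against a median of 35.4 in the variable bins, and a greater depth lowers the molecule-level SD. At chr12:20233201-20233400 AME-d0 replicates 1 and 3 had 39.7% and 45.3%, whereas the rest of AME-d0 lay at 57.7% to 59.2%. The last of these members is shown because the stretch holds the most members outside the imprinted list.
Gm49692, chr12:20233601-20233800: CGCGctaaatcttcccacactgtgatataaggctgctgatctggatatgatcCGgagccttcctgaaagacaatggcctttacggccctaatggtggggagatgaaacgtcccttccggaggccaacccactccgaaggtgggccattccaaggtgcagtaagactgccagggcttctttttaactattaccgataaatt
Of its 8 CpGs 3 were counted.

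Imprinted genes were common in the list. Of 95 kept bins in or near the 50 genes of the imprinted list, 31 were variable bins, which is 6.2% of the list against 0.265% of all kept bins. Of 39 imprinted bins at 30% to 70% methylation 30 were members (76.9%), against 74 of 369 other island bins of that range (20.1%). The read depth of these 2 sets was similar, at a median of 38.2 and 34.6 reads per CpG. The molecule-level SD was 7.87 and 7.99 points, and the mean within-group SD 7.44 and 4.85. The molecule level takes all CpGs of a read to share 1 state, so similar levels need not mean similar SDs from counting. How far the reads of each set share 1 state was not tested. Beside Peg13, Airn, Plagl1 and Gnas, the members lay at Nnat (3 bins), Zrsr1 (5), Grb10 (3), Peg10 (2), Impact (2), Mcts2 within H13 (2), Snrpn, Inpp5f, Dlk1, Kcnq1ot1, Nap1l5 and Slc38a4, with further bins at Airn and Gnas. In islands lay 29 of the 31, and 27 had a mean between 30% and 50%. Their spread stood close to the molecule level, with a median ratio of 0.941, and 11 were above it. When bins were ranked by the variance above the molecule level, 15 imprinted bins were in the first 500. Apart from the 12 highest ranks and the named stretches, these genes were named after their values were seen.

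In every group the measured values of the imprinted bins ranged between libraries, but a difference between animals beyond counting is not shown. At Snrpn, a splicing gene of the Prader-Willi cluster, Con-d0 spanned 28.3% to 51.2%, AME-d0 26.5% to 55.8%, Con-d21 39.7% to 59.6% and AME-d21 38.8% to 61.8%. Adjoining imprinted members, which can share reads, made 8 pairs, and the r of their deviations ran from -0.451 at Zrsr1 to 0.969 at Peg10, with a median of 0.479. In 9 pairs that start 400 to 1000 bp apart it was 0.008. At Peg10, a gene derived from a retrotransposon, AME-d0 replicate 3 stood lowest of its group in both members, at 17.5% and 18.6%. The mean over the 31 imprinted members was 39.8% to 42.0% in the Con-d0 libraries, and 36.2%, 38.4%, 32.4%, 39.7% and 41.2% in AME-d0 replicates 1 to 5. The Con-d21 libraries had 42.9% to 46.9%, and those of AME-d21 had 43.0% to 46.8%. AME-d0 replicates 1 and 3, the libraries with the fewest methylated reads, were lowest here too.
The sequence of the Airn bin, the highest-ranked imprinted member after Peg13, is shown with the 9 of 17 CpGs counted.
Airn, chr17:12742201-12742400: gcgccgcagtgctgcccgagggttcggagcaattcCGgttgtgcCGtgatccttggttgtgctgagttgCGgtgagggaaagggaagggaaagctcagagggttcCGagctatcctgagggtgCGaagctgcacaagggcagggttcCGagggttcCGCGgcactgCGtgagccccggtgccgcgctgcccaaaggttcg

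Outside the imprinted list, the fixed gene lists held few variable bins. Fgb, a fibrinogen gene of hepatocytes, gave 1 of 5 kept bins at hepatocyte genes. Runx1 and Fli1, transcription factors of blood cells, gave 2 of 47 at haematopoietic and myeloid genes. Irs2, an adaptor of the insulin receptor, gave 1 of 40 at glucose and hormone genes, and Zfp57, a zinc finger protein that protects imprints, gave 1 of 34 at genes of the methylation machinery. Zinc finger genes of the Zfp family gave 5 of 582, with Zfp362 at rank 30 and Zfp628 at rank 139. Olfactory and vomeronasal receptors gave 2 of 46, ribosomal RNA 1 of 58 and fetal liver genes 1 of 39, the imprinted Dlk1. No member lay at the 28 kept bins of genes known to lie near variably methylated IAP elements, the 76 of lipid and bile acid metabolism, the 77 of liver transcription factors or the 117 of Hox genes. Of these only 3, 4, 5 and 0 bins lay at 30% to 70%, where 13.2% of all kept bins were members. Clustered protocadherins held none in 48, of which 20 lay at 30% to 70%. The erythroid, B cell, endothelial, Kupffer, stellate, cholangiocyte and germline lists, with 1 to 22 kept bins each, held none.

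Members lay far from promoters more often than kept bins in general, and much like other bins of intermediate methylation. Within 1 kb of a TSS lay 16.2% of the variable bins, 52.0% of all kept bins and 13.2% of the other bins of 30% to 70%. Between 5 and 50 kb from a TSS these shares were 57.2%, 26.6% and 53.2%. CpG islands held 24.8% of the variable bins, 61.8% of all kept bins and 11.2% of the other bins of 30% to 70%. Introns held 39.0%, exons 30.2% and intergenic sequence 30.8% of the variable bins. A variable bin had a median of 9 CpGs in its 200 bp, against 13 in all kept bins and 7 in the other bins of 30% to 70%. The motif GGGCGG (either strand), the core of the SP1 motif, was in 21.4% of the variable bins, 34.4% of all kept bins and 12.6% of the other bins of 30% to 70%. AGATAA (either strand), of the kind GATA factors bind, was in 8.2%, 3.71% and 8.81%.

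Repeats were not more common in the list. Sequence that is soft-masked over 50% or more of the bin made up 7.6% of the variable bins, 9.91% of all kept bins and 7.69% of the other bins of 30% to 70%. Median 30-mer copy numbers of 2 or more were found in 6.4%, 9.11% and 7.05%. The most repeated member, on chromosome 18, had 30-mers with a median of 1926 copies. Next came an intron of 1700112M02Rik at chr13:71491601-71491800, with 1188, and the repeat on chromosome 3 shown above. The bin at 1700112M02Rik ranked 112, and there Con-d0 spanned 40.2% to 67.9%, AME-d0 43.9% to 67.9%, Con-d21 37.2% to 47.3% and AME-d21 39.1% to 54.5%. The member in ribosomal RNA sequence, at rank 130, was lower at d21 (limma adjusted p = 0.0141 in Con and 0.0162 in AME), and there Con-d0 spanned 16.8% to 47.5%, AME-d0 15.7% to 34.6%, Con-d21 7.90% to 24.6% and AME-d21 10.8% to 16.8%.

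Some libraries stood at the edge of their group more often than others. AME-d0 replicate 1 was the lowest of its group in 183 variable bins (36.6%) and in 39.4% of all kept bins, and AME-d0 replicate 3 in 123 (24.6%) and 16.5%. Con-d0 replicate 5 was the highest of its group in 136 (27.2%) and 25.2%. Averaged over the variable bins, methylation was 46.5% and 48.4% in AME-d0 replicates 1 and 3, and 50.8% to 53.2% in the other d0 libraries. Above the molecule level were 120 members without these replicates and 127 with them.

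The comparison of d21 with d0 asks what changes in the liver between birth and weaning. The ranking did not use the difference between group means. It did use the spread within groups, by which the test divides that difference, so the shares called and the counts of groups without overlap also carry the selection and are given as a description. In Con, 144 of the 500 variable bins were higher at d21 (28.8%, against 28.7% of all kept bins) and 98 were lower (19.6%, against 3.64%), by limma's moderated test on log2((methylated + 1)/(unmethylated + 1)) at an adjusted p under 0.05. In AME, 164 were higher (32.8%, against 31.5%) and 90 lower (18%, against 3.17%). Without AME-d0 replicates 1 and 3 these were 129 (25.8%, against 23.4%) and 82 (16.4%, against 2.75%). The median absolute difference between ages was 11.8 points in Con and 13.1 in AME. In either direction 48.4% of the variable bins were called in Con (all kept bins 32.3%) and 50.8% in AME (34.7%). Of the bins of 30% to 70% that were no members, 52.0% were called in Con and 54.5% in AME, with 15.5% and 14.3% lower. At an unadjusted p under 0.05 were 55.6% of the variable bins in Con (40.7% of all kept bins) and 59.0% in AME (42.4%). All 5 libraries of d21 lay above all 5 of d0 in 116 variable bins in Con (23.2%, against 21.8%) and 132 in AME (26.4%, against 23.3%). They lay below in 86 in Con (17.2%, against 2.77%) and 69 in AME (13.8%, against 2.34%). In both comparisons 215 members were called, all in the same direction, which is 88.8% of the Con calls and 84.6% of the AME calls. Over all kept bins 9211 were called in both, 79.5% and 74.1% of the calls, with 9205 in the same direction. Over the other bins of 30% to 70% the shares were 90.5% and 86.4%, all in the same direction.

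The rises of smallest p in Con were at Prkag2, Sall1, Myo7a and Urad. An intron of Prkag2, a regulatory subunit of AMP-activated protein kinase, had 15.4%, 32.4%, 24.6%, 27.1% and 22.3% in the Con-d0 libraries and 74.7%, 82.2%, 81.7%, 78.6% and 75.9% in the Con-d21 libraries. The groups did not overlap, and the log2 ratio rose by 3.51 ± 0.27 (SE, limma adjusted p = 1.55e-06). A bin upstream of Sall1, a zinc finger gene of organ development, rose from 15.6% ± 4.9 to 65.6% ± 4.9 (SD, n = 5, limma adjusted p = 2.91e-06). An intron of Myo7a, an unconventional myosin of the inner ear, rose from 24.1% ± 2.5 to 73.5% ± 7.7 (SD, n = 5, limma adjusted p = 3.75e-06). Urad, which encodes an enzyme of uric acid breakdown, rose from 6.71% ± 1.5 to 59.1% ± 15 (SD, n = 5, limma adjusted p = 3.97e-06). Its spread was almost wholly at d21, where Con-d21 had 39.1% to 77.1% and AME-d21 39.4% to 58.9%, whereas Con-d0 had 4.76% to 8.82% and AME-d0 4.55% to 9.77%.

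The falls of smallest p in Con were at Rnf220, Cidec, an intergenic bin and Robo1. The intron of Rnf220, a ubiquitin ligase, had 54.5%, 66.2%, 72.2%, 57.5% and 58.2% in the Con-d0 libraries and 13.1%, 7.69%, 7.12%, 7.33% and 13.2% in the Con-d21 libraries. The log2 ratio was -3.90 ± 0.30 (SE, limma adjusted p = 1.43e-06). The next bin of the same intron, at rank 47 and named after its values were seen, had its spread at d0. There Con-d0 spanned 28.7% to 73.9%, AME-d0 33.3% to 53.1%, Con-d21 3.21% to 7.87% and AME-d21 0% to 11.3%. Cidec, a lipid droplet protein, fell from 69.6% ± 2.1 to 25% ± 7.7 (SD, n = 5, limma adjusted p = 1.22e-05). The intergenic bin at chr6:30477601-30477800 fell from 66.2% ± 5.8 to 22.6% ± 6.5 (SD, n = 5, limma adjusted p = 1.56e-05). Robo1, a guidance receptor, fell from 57.1% ± 8 to 18.9% ± 3.2 (SD, n = 5, limma adjusted p = 1.77e-05).

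In AME the smallest p values belonged partly to other genes. Fignl2, of the fidgetin family, rose from 19% ± 2.5 to 75.4% ± 5 (SD, n = 5, limma adjusted p = 2.61e-07) and Urad from 6.42% ± 2 to 49.7% ± 7.6 (SD, n = 5, limma adjusted p = 5.69e-07). A bin upstream of Bach1, a repressor of haem oxygenase, rose from 17.4% ± 4 to 67.9% ± 5.8 (SD, n = 5, limma adjusted p = 1.3e-06). The predicted gene Gm36640 rose from 20% ± 3.5 to 70.3% ± 6.3 (SD, n = 5, limma adjusted p = 1.5e-06). Ccm2l, a gene of the vascular wall, fell from 69.8% ± 6.4 to 24.2% ± 5.5 (SD, n = 5, limma adjusted p = 7.02e-06). 2700081O15Rik at chr19:7423001-7423200 fell from 71.5% ± 6.7 to 16.3% ± 8.2 (SD, n = 5, limma adjusted p = 7.08e-06). Cux2, a homeobox gene, fell from 64.4% ± 10 to 19% ± 2.4 (SD, n = 5, limma adjusted p = 1.03e-05), and Lasp1, an actin-binding protein, fell from 59.1% ± 5.2 to 16.3% ± 5.8 (SD, n = 5, limma adjusted p = 1.37e-05). All 8 were also called in Con, in the same direction.

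Outside the imprinted list 12 members lay at genes of the fixed lists, of which 10 were called with age in Con and 9 in AME. Over all kept bins 32.3% were called in Con and 34.7% in AME, and over the other bins of 30% to 70% 52.0% and 54.5%. These 12 carry the selection by spread, so the counts are a description. In Con, Fgb fell from 63.3% ± 5.3 to 23.7% ± 11 (SD, n = 5, limma adjusted p = 0.000266) and Runx1 from 52.6% ± 7.2 to 12.9% ± 7.4 (SD, n = 5, limma adjusted p = 0.0001). Irs2 fell from 74.7% ± 6.7 to 34.6% ± 3.2 (SD, n = 5, limma adjusted p = 1.93e-05), and Zfp57 rose from 30.1% ± 9.8 to 88.3% ± 3.9 (SD, n = 5, limma adjusted p = 6.18e-06). Each of these 4 was also called in AME, in the same direction. Fli1 rose from 52.9% ± 7.2 to 72.8% ± 5.8 (SD, n = 5, limma adjusted p = 0.00333) in AME, and in Con, close to the threshold, from 52.5% ± 8.1 to 64.9% ± 4.4 (SD, n = 5, limma adjusted p = 0.0499). Zfp362 was lower and Zfp628 and Zfp579 higher at d21 in both. Zfp710 was called in Con, with a difference of 15.7 points (limma adjusted p = 0.00206), but had 4.21 points in AME (limma adjusted p = 0.628). Zfp579 and Zfp710 were named after their values were seen. The bins at the olfactory and vomeronasal receptors were called in neither. The bin nearest Gm6365 differed by -6.91 points in Con and 3.36 in AME (limma adjusted p = 0.311 and 0.621), and that nearest Vmn1r29 by -2.79 and -2.64 (limma adjusted p = 0.659 and 0.743).

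Of the 31 imprinted members only Nap1l5 and Inpp5f were called in Con, both higher at d21 (6.45%, against 32.3% of all kept bins called in either direction). Inpp5f, a phosphoinositide phosphatase gene, had 25.3%, 48.1%, 33.9%, 50% and 36.3% in Con-d0 and 55.5%, 70.8%, 68.4%, 52.2% and 64.9% in Con-d21 (limma adjusted p = 0.00547). The groups did not overlap. Nap1l5, of the nucleosome assembly protein family, rose from 38.1% ± 2.9 to 57.7% ± 6.5 (SD, n = 5, limma adjusted p = 0.00227). In AME 7 were called (22.6%, against 34.7%), all higher: Nap1l5, Inpp5f, Dlk1, and 1 bin each of Nnat, Gnas, Peg10 and Grb10. Dlk1, a ligand of fetal liver, differed by 12.9 points in Con (limma adjusted p = 0.0900) and by 13.5 in AME (limma adjusted p = 0.0443). Without AME-d0 replicates 1 and 3, 3 of the 31 were called in AME, and the share of all kept bins called was 26.2%. The difference between the age changes of AME and Con was tested as an interaction and called in none of the kept bins (0%).

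**Figure D4:**
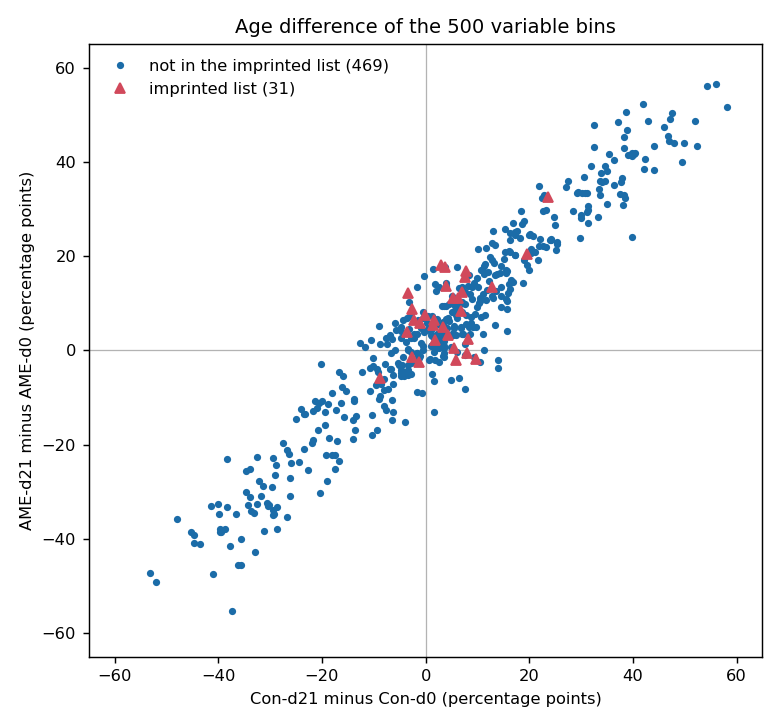
Mean methylation at d21 minus that at d0 for the 500 variable bins, Con on the x axis and AME on the y axis, both in percentage points, with imprinted bins as triangles. Bins lie along the diagonal from about -55.2 to 58.2 points, and the imprinted ones near the origin apart from a few that are higher at d21.

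The comparison of AME with Con within an age asks whether the maternal environment shifted the same bins. At d0 no kept bin passed limma at an adjusted p under 0.05, and at d21 none did (0% in each). Of the variable bins 10 had an unadjusted p under 0.05 at d0 (2.0%, against 5.21% of all kept bins) and 20 at d21 (4.0%, against 5.09%). The within-group spread that ranked the members enters this test, so these shares carry the selection, and they depended on the setting. With 5 reads added in place of 1, 35 members (7.0%, against 4.72%) were under 0.05 at d0 and 38 (7.6%, against 5.00%) at d21, so that the members went from below to above the background. Without AME-d0 replicate 2, 4 or 5 the count at d0 was 22, 20 and 20 (4.4%, 4.0% and 4.0%, against 5.40%, 5.26% and 5.39%). The quasi-binomial logistic model also called none at either age, with 11 members at an unadjusted p under 0.05 at d0 (2.2%, against 3.96%) and 12 at d21 (2.4%, against 2.88%). For the interaction 15 members were under 0.05 in limma (3.0%, against 4.73%). The median absolute difference between AME and Con in the variable bins was 2.84 points at d0 and 2.69 at d21, against 0.231 and 0.257 over all kept bins, most of which are unmethylated, and 2.19 and 2.06 in the other bins of 30% to 70%.

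The members of smallest p were singled out after their values were seen. At d21 it was 2700081O15Rik at chr19:7423001-7423200, an exonic island bin. It had 35.6%, 26.3%, 40%, 41.3% and 32.7% in Con-d21 and 11.5%, 10.5%, 27.1%, 9.20% and 23.3% in AME-d21 (difference -18.9 points, limma unadjusted p = 0.000945, adjusted p = 0.954). The groups overlapped by 1 library. The neighbouring member, which starts 200 bp before it, had 31.2% ± 9.7 in Con-d21 and 23.6% ± 13 in AME-d21 (SD, n = 5), and the deviations of these bins had an r of 0.039. Its sequence is shown because this stretch also changed with age.
2700081O15Rik, chr19:7422801-7423000: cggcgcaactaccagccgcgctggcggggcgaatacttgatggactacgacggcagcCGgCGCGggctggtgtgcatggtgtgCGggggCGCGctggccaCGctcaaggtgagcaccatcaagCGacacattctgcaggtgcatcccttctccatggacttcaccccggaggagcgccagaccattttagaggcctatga
At d0 the smallest p belonged to an actinin gene bin, Actn1, at chr12:80168401-80168600. It had 22.6%, 27.8%, 24.1%, 22.8% and 20.3% in Con-d0 and 19.4%, 3.57%, 13.8%, 10.3% and 3.65% in AME-d0 (difference -13.4 points, limma unadjusted p = 0.00234, adjusted p = 0.820). The groups did not overlap here, as in 4 variable bins that were lower in AME at d0 (0.8%, against 0.572% of all kept bins). At d21 it was 1 variable bin (0.2%, against 0.29%), and no member was higher in AME without overlap at either age, against 0.176% and 0.271% of all kept bins. Actn1 did not keep this order at d21, where Con-d21 had 23.7% to 60.9% and AME-d21 22.1% to 52.6%.

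Among the imprinted members, 25 of 31 had a lower mean in AME-d0 than in Con-d0, with a median difference of -3.43 points. The median was also lower in AME-d0 in the other variable bins (-1.69 points) and in the other bins of 30% to 70% (-1.39). Without AME-d0 replicates 1 and 3, 20 of the 31 imprinted members were lower, with -1.97 points, and no such value is given for the other sets. The furthest apart were the Peg10 bin at chr6:4747201-4747400, with 47.5% ± 8.6 in Con-d0 and 33.1% ± 8.9 in AME-d0 (SD, n = 5, limma adjusted p = 0.928), and Grb10, an adaptor that restrains growth factor receptors, with 44% ± 4.3 and 30.9% ± 5.6 (SD, n = 5, limma adjusted p = 0.858). The deviation of AME-d0 replicates 1 and 3 moves with these values, and beyond leaving these libraries out its part in them was not tested.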

How the data were processed

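Reduced representation bisulfite sequencing was done on 20 whole mouse livers, with 51 bp paired-end reads of MspI fragments. The authors trimmed and aligned the reads to mm10 with FastQC, Trim Galore, Bismark and BWA per the labels, whose versions are not given. For every CpG of a library they deposited read counts (methylated, unmethylated and summed) and their ratio in percent. Removal of duplicate reads and molecular identifiers are not described. Values here rest on the deposited counts, of which the percent column is the exact ratio. Methylated and total counts of CpGs with 10 reads in all 20 libraries were summed over 200-bp bins of chromosomes 1 to 19, and bins with 100 summed reads in every library were kept. The spread of a bin is the SD of percent methylation among the 5 libraries of a group, averaged over 4 groups.

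Group means were compared in all 35855 kept bins with limma 3.58.1 in R 4.3.3. The values were log2 ratios of methylated over unmethylated reads with 1 read added to each. P-values were adjusted over all kept bins by Benjamini-Hochberg, with a threshold of 0.05. The other steps used Python 3.11.15, numpy 2.4.6, pandas 2.3.3 and numba 0.67.0, and were tested on simulated data. CpG islands were called in GRCm38 from windows of 500 bp with 55% G+C and at least 0.65 of the CpGs expected from base composition. Shores reach 2 kb from them. A bin belongs to a gene list when its middle lies in a listed gene or within 5 kb of the TSS of 1. The number of copies of each 30-mer was counted in the whole genome. The replicates are labelled as separate samples. Where litters were shared is not given in the labels, so p-values measure the spread between these samples.

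The members and the gene lists were chosen with earlier results of these data known. Named bins are the 12 highest ranks outside chromosome 18, up to 4 called members of smallest p per direction and comparison, up to 2 members per gene list, the 3 most repeated members, the 3 longest stretches and the 2 bins on either side of rank 500. Others are said to have been named after their values were seen. Depth limits the spread: a bin holds at least 100 reads, which are fewer molecules.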

Additional observations from a re-analysis of the deposited data

Results flagged for a closer look

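In 9 of 208 groups of 5 libraries, over 52 named bins, a single library lay further from the rest than Dixon's 95% limit allows (4.33%, where chance gives about 1 in 20). Because these bins were chosen for their spread, they are given as values. Con-d0 replicate 1 stood at 63.1% near Gm7389, and the rest of Con-d0 at 19.2% to 30.2%. AME-d0 replicate 3 stood at 26.0% in the chromosome 3 repeat near 4932438A13Rik, below 41.9% to 47.2%. AME-d21 replicate 5 stood at 47.1% in 2700081O15Rik (nearest start Mir6991, rank 9), above 15.2% to 20.3%. The same library stood at 58.1% upstream of Bach1, below 68.2% to 72.3%.

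Con-d21 replicate 3 stood at 39.6% in Zfp628 (nearest start Nat14), below 53.5% to 57.4%, and Con-d21 replicate 4 at 95.1% in Zfp57 (nearest start Gm22388), above 85.7% to 88.4%. AME-d0 replicate 2 stood at 9.77% in Urad, above 4.55% to 6.00%, and AME-d0 replicate 5 at 23.3% in Fignl2 (nearest start Gm47841), above 16.9% to 18.6%. Con-d21 replicate 1 stood at 60.8% in AC152076.4, the last of the 500 bins, above 46.4% to 49.7%. No library was flagged in more than 2 bins.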

How the results depend on the processing

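Which bins made up the 500 depended on the depth asked and on the libraries used. Of the members 224 stayed with 20 reads per CpG, 74 when bins of 50 reads were admitted and 325 with bins thinned to 100 reads. With 200 reads per bin 49 stayed, which are all the members that met this minimum. Members that fell under the bin minimum when 20 reads per CpG were asked count as lost. Ranked on fewer groups, 230 stayed from the d0 groups only, 294 from the d21 groups only, 318 from the Con groups only and 289 from the AME groups only. By the SD of the log2 ratio 3 stayed. By the variance above the molecule level, chosen after seeing the data, 181 stayed and the imprinted members fell from 31 to 15. Leaving out a library in turn kept 431 to 456. With 200 reads per bin 49 members were tested, of which 8 were called higher and 8 lower with age in Con and 9 and 8 in AME, with 2298 and 2458 of all 13879 bins called (16.6% and 17.7%, against 32.3% and 34.7%). With bins of 50 reads 29259 of 68912 bins were called in Con and 31050 in AME (42.5% and 45.1%). The read minimum changes which bins are tested and how many, and the cause of the differing shares was not tested.

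Leaving out a library in turn gave 127 to 140 of the 500 members higher and 89 to 96 lower with age in Con. In AME it gave 150 to 167 and 80 to 89. Of all kept bins, these fits called 25.5% to 27.7% higher and 3.31% to 3.53% lower in Con. In AME they called 27.8% to 29.96% higher and 2.9% to 3.04% lower. The test of whether the AME effect differs between ages called 0 to 1 of all bins, the 1 without Con-d21 replicate 4. For 7 imprinted members called with age in AME, the count was 3 without AME-d0 replicates 1 and 3 together and 11 with 5 reads added. Of all kept bins 34.7% were called in AME, 26.2% without these libraries and 39.4% with 5 reads added. The cause was not tested. The 16 named age results kept direction and call in all 250 alternatives run on them. They were picked as the called members of smallest p, so this does not extend to calls nearer the threshold. Same-numbered replicates did not deviate together, with correlations of -0.046 to 0.049. With the replicate number as a block 140 members were higher and 91 lower with age in Con, 163 and 84 in AME, and none differed between AME and Con. These were 28.0% and 18.2% of the members in Con, against 25.9% and 3.38% of all kept bins. In AME they were 32.6% and 16.8%, against 29.3% and 2.99%.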
